A study of Homo sapiens with 25 samples.

Results

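The genes described here encode the ADAM, ADAMTS, ADAMTSL and MMP proteins, a set of cell surface and extracellular matrix proteases with their close relatives. They were chosen by symbol alone: every protein-coding gene on chromosomes 1 to 22, X and Y whose symbol is ADAM, ADAMTS, ADAMTSL or MMP followed by digits and at most 1 letter, which gave 67 of 20037 protein-coding genes (20 ADAM, 19 ADAMTS, 5 ADAMTSL and 23 MMP genes). No measured value enters that rule, and all 67 genes were counted, with no filter on weak signal.

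The study followed H1 human embryonic stem cells, an established line, as they were differentiated toward pharyngeal foregut endoderm, and profiled 3 histone modifications by chromatin immunoprecipitation with sequencing (ChIP-seq). The 4 stages were undifferentiated cells (hESC), definitive endoderm cells (hDE), cells of the anterior foregut endoderm (hAFE) and those of the pharyngeal foregut (hPFE), all of the H1 line and with no genetic change or further agent named in the labels. Of 25 samples, 21 have a peak list (8 for H3K27ac, 7 for H3K27me3 and 6 for H3K4me2), and 4 are inputs, 1 per stage, which served as the authors' controls. Every stage has 2 libraries per mark, except H3K27me3 in hAFE and H3K4me2 in hAFE and in hPFE, which have 1 library each.

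The labels mark the hESC libraries of H3K27ac and H3K27me3 as re-analysed from an earlier deposit, so for these marks batch and stage cannot be told apart in any contrast with hESC. Replicate 1 of H3K27me3 in hESC, hDE and hPFE carries the word millipore in its file name, and what the word refers to is not given in the sources used here. The labels do not say that replicates came from separate cultures, so the spread between them may be technical. Before overlapping peaks were merged, the lists held 24831 to 111237 peaks for H3K27ac, 23352 to 76273 for H3K27me3 and 87338 to 116168 for H3K4me2. The shortest H3K27ac lists were those of hAFE (42049 in replicate 1 and 24831 in replicate 2). The sequencing depth behind a list is unknown here, so a missing peak does not show that a mark is missing. In the check of the stage labels, 6 of 6 hESC marker genes carried H3K27ac in both hESC libraries, 8 of 8 hDE markers did so in both hDE libraries against 0 of 8 in hESC, and 5 and 7 of 13 foregut and pharyngeal markers did so in hAFE and hPFE. Of the hESC markers 4, 2 and 3 carried it in hDE, hAFE and hPFE, NANOG in both hPFE libraries among them. TBX1, a pharyngeal marker, had an H3K27ac peak in no library and an H3K27me3 peak in every one. None of 6 mesoderm, 4 neural and 4 blood or endothelium markers carried H3K27ac in both libraries of any stage.

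MMPs are secreted or membrane-bound zinc proteases that cut collagens and other matrix proteins, and most are made as inactive precursors. ADAMs are membrane proteins, some of which release growth factors, cytokines or receptors from the cell surface, while others have lost the zinc-binding site and act in adhesion. ADAMTS proteases are secreted and process proteoglycans, procollagens and microfibril proteins, ADAMTSL proteins resemble them but have no protease domain, and several of these families are known for their part in tissue remodelling during embryonic development. Acetylation of lysine 27 on histone H3 (H3K27ac) marks active promoters and enhancers, trimethylation of the same residue (H3K27me3) is laid down by the Polycomb repressive complex 2, and dimethylation of lysine 4 (H3K4me2) is found at promoters and enhancers that are active or poised.

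A gene counts as marked at a stage if each of its libraries there has at least 1 bp of a peak no farther than 1 kb from an annotated end, unmarked when no library has, and mixed otherwise. A gene gained a mark between stages when it went from unmarked to marked, and lost it in the reverse case. Both ends were used because strand was given for 41 of the 67 genes only. The number printed for a peak is its fold enrichment over input, the authors' own value within 1 list, given for the strongest end peak, replicate 1 first. It describes a peak, is not read as a change between lists, and was ranked across lists only to choose which promoters to print. Contrasts that share a stage share its libraries, and the lists of all marks at a stage share 1 input. With 2 libraries against 2, an exact two-sided permutation test cannot give a p below 0.333, so no test was run on any gene, and each count stands beside the share of all protein-coding genes called in the same way.

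The promoters of the 7 genes that gained or lost H3K27ac with the highest fold enrichment, among those with a RefSeq promoter entry, are printed because the H3K27ac peaks described below lie on or beside them. Each runs 5′ to 3′ on the coding strand from 250 bases before to 50 bases after the annotated start (GRCh38.p14), and capitals mark a TATA box, AP-1, GATA, FOXA, T-box or GC box motif on either strand:
ADAM19 (chr5:157575726-157576025, minus strand): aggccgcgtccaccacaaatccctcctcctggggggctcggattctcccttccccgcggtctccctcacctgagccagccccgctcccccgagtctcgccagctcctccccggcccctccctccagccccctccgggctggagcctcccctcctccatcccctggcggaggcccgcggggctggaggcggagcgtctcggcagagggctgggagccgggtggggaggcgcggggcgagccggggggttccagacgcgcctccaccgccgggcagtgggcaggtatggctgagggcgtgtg
MMP14 (chr14:22836335-22836634, plus strand): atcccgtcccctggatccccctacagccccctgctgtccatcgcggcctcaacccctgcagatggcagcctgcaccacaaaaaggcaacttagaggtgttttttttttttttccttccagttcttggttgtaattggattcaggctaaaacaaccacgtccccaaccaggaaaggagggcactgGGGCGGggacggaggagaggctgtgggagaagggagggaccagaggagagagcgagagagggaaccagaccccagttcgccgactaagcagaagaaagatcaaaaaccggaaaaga
MMP15 (chr16:58025504-58025803, plus strand): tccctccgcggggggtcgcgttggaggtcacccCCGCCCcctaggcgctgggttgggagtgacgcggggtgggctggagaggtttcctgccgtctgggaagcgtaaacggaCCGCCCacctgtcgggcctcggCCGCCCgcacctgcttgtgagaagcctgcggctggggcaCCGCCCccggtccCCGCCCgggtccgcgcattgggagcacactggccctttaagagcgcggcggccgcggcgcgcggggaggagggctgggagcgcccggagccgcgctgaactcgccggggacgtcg
ADAMTS3 (chr4:72569172-72569471, minus strand): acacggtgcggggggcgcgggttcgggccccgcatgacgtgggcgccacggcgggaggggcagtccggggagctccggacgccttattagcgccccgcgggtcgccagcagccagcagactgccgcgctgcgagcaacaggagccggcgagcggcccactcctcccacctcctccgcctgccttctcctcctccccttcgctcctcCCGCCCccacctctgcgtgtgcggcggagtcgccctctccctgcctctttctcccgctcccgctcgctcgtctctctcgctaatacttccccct
ADAMTS18 (chr16:77434985-77435284, minus strand): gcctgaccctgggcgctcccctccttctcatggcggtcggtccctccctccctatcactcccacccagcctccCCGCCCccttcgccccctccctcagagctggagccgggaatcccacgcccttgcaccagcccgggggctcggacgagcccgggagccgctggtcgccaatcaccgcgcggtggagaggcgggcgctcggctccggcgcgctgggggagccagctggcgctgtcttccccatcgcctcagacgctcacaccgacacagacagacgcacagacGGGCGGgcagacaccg
ADAMTS6 (chr5:65481871-65482170, minus strand): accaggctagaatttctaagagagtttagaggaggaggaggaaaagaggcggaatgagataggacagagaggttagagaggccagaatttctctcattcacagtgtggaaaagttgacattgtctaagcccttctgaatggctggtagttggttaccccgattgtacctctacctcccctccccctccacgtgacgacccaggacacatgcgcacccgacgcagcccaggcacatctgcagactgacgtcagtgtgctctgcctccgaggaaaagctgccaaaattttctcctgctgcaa
MMP26 (chr11:4704534-4704833, plus strand): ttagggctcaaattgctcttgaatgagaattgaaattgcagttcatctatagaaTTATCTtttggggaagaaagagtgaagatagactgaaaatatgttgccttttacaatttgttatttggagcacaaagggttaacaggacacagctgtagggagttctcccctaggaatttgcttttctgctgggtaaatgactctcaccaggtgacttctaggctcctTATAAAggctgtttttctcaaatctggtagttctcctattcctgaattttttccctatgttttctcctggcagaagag

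These windows differ widely in CpG content: MMP15 holds 39 CpG dinucleotides, ADAMTS3 35, ADAMTS18 30, ADAM19 26, MMP14 10, ADAMTS6 9 and MMP26 0. The MMP26 window has a TATAAA word whose first base lies at position -28 from the start, and a GATA motif at -196. ADAM19 and ADAMTS6 hold none of the motifs, and the MMP15 window has 5 GC boxes. A match of this kind describes the letters only.

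Across the set, H3K27ac was less common and H3K27me3 more common than over all protein-coding genes at each stage. From hESC to hPFE in the order of the stages, H3K27ac marked 19, 24, 15 and 21 of the 67 genes, that is 28.4%, 35.8%, 22.4% and 31.3%, where 42.9%, 54.0%, 34.2% and 50.2% of all protein-coding genes were marked. H3K27me3 marked 25, 17, 23 and 19 genes in the same order (37.3%, 25.4%, 34.3% and 28.4%), beside 19.2%, 13.4%, 15.5% and 12.7% of all genes. H3K4me2 marked 46, 43, 45 and 46 genes (68.7%, 64.2%, 67.2% and 68.7%), beside 72.3%, 68.0%, 70.2% and 70.1% of all genes. Single libraries showed the same order without exception: the share of the set with an H3K27ac peak ran from 22.4% to 44.8% over the 8 libraries and lay under the share of all genes in each, and the H3K27me3 share ran from 25.4% to 41.8% over the 7 libraries and lay above it in each. The libraries of a stage disagreed at 14, 7, 9 and 7 genes for H3K27ac, in the order of the stages. Each library comes from a whole culture, so a mark carried by all cells and a mark carried by a share of them cannot be told apart. Counted from 1 library alone, H3K27ac marked 29 genes without hESC replicate 2 and 24 without hAFE replicate 2.

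**Figure D1:**
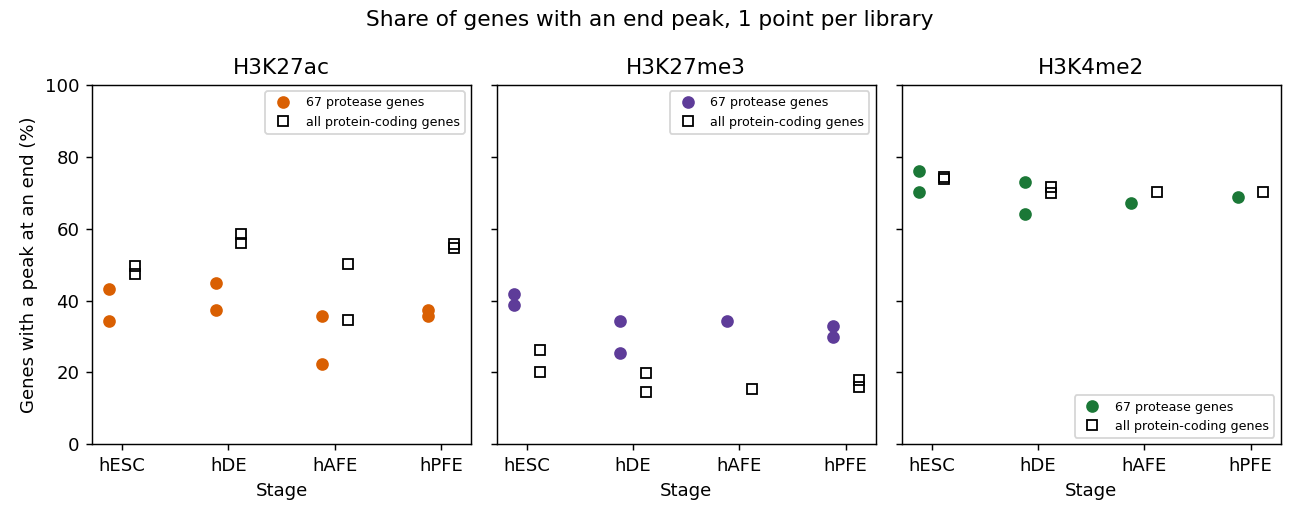
Share of genes (percent, vertical axis) with a peak within 1 kb of a gene end, by stage, 1 panel per mark and 1 point per library, with filled circles for the 67 protease genes and open squares for all 20037 protein-coding genes. The protease genes lie below all genes in each H3K27ac library (22.4% to 44.8%) and above them in each H3K27me3 library (25.4% to 41.8%), while the H3K4me2 shares of the protease genes (64.2% to 76.1%) lie on both sides of those of all genes.

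By family, the ADAMTS genes carried the most H3K4me2 for their number. All 19 were marked by H3K4me2 in hESC, hAFE and hPFE and 17 in hDE, and H3K27me3 marked 10, 6, 9 and 8 of them over the stages and 3, 3, 3 and 2 of the 5 ADAMTSL genes. Among the 23 MMP genes, H3K27ac marked 5, 8, 1 and 5, the single MMP gene marked in hAFE being MMP16, and H3K4me2 marked 13, 11, 11 and 11. H3K27ac marked 6, 8, 6 and 7 of the 20 ADAM genes. Of the 12 ADAM genes with a zinc site, 5, 7, 5 and 6 carried it, and of the 8 without, 1 at each stage.

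**Figure D2:**
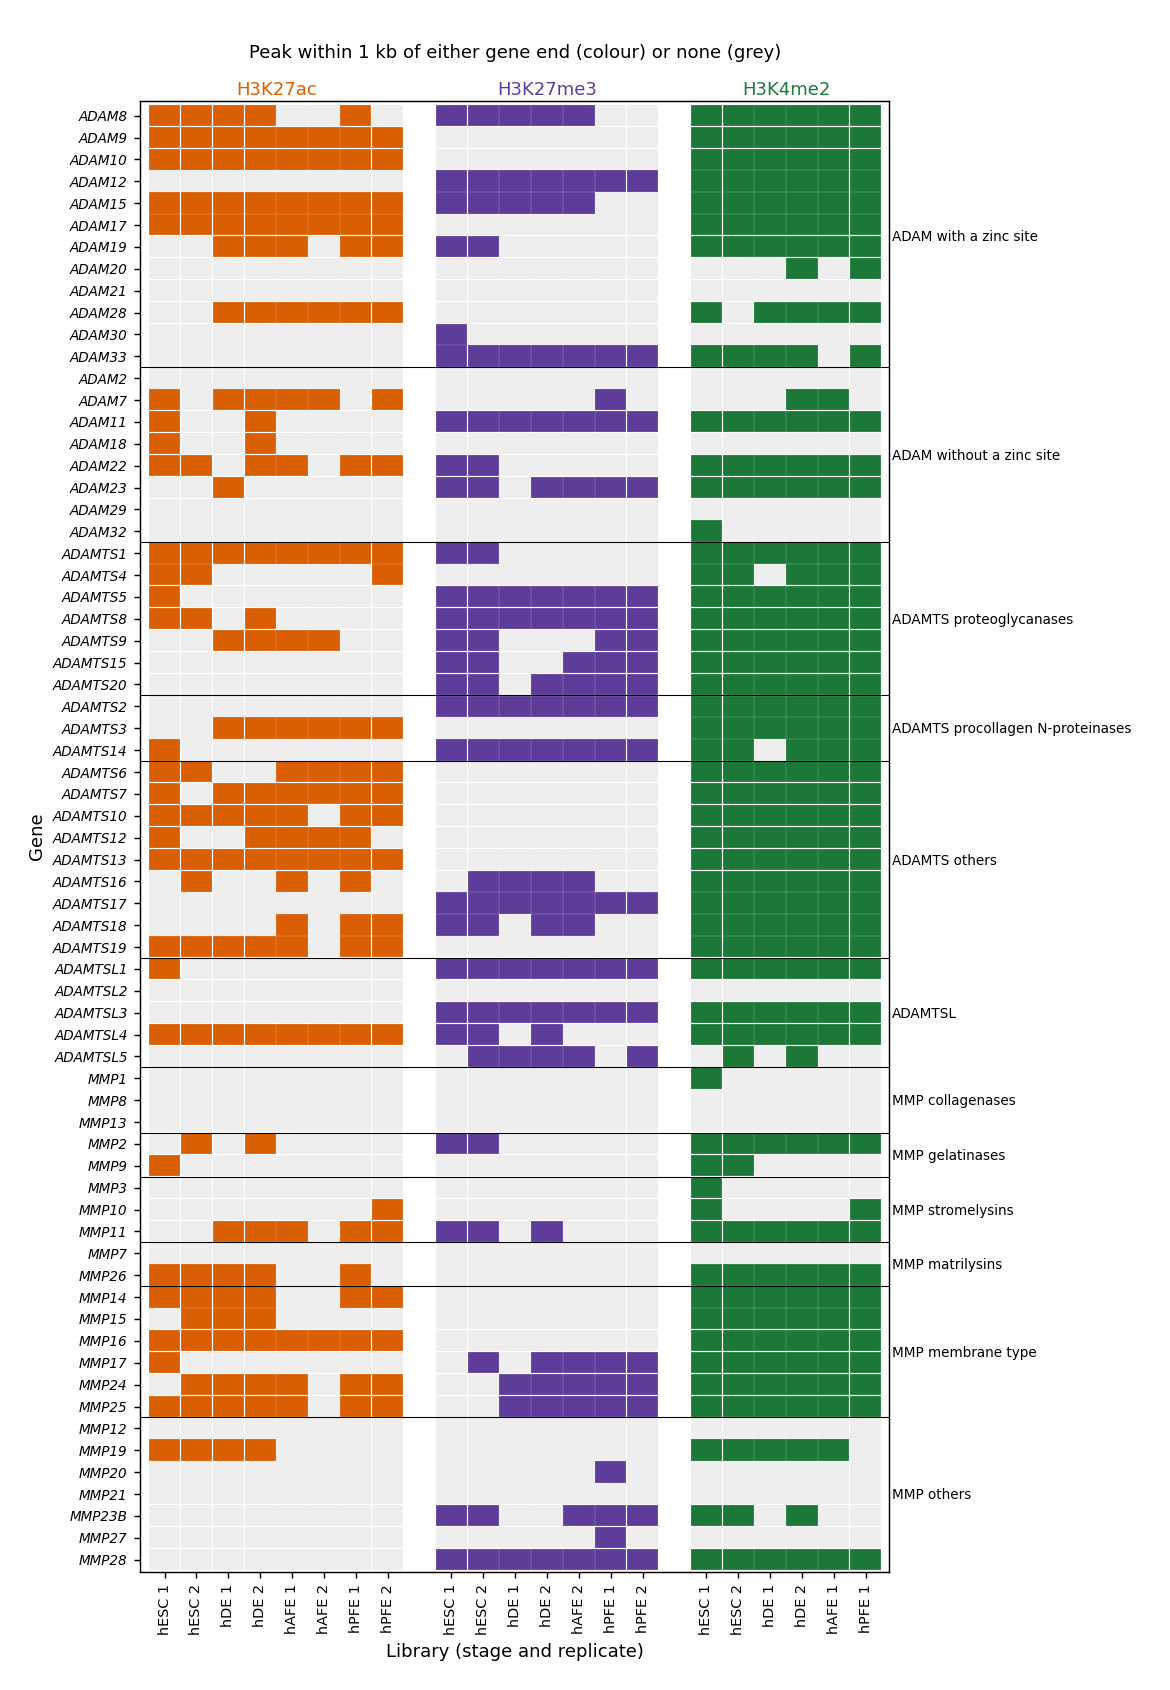
Presence (colour) or absence (grey) of a peak within 1 kb of either gene end for the 67 genes (rows, grouped by role) in the 21 libraries (columns, by mark, stage and replicate). The MMP collagenases show nearly no colour, most ADAMTS rows are green throughout, and H3K27ac changes by stage at genes such as ADAM19, ADAMTS9 and MMP14.

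H3K27ac lay at an end of 8 genes in every library (11.9%, beside 30.3% of all genes), at 26 in none (38.8%, beside 29.9%), and 14 genes gained or lost it in at least 1 of the 4 contrasts described here. The other 19 had a peak in some libraries only. The 8 constant genes include the main cell surface sheddases. ADAM10, which cuts Notch receptors and the amyloid precursor protein, had a fold enrichment of 4.75 and 4.64 in hESC, 13.3 and 13.7 in hDE, 6.24 and 3.67 in hAFE and 7.29 and 9.72 in hPFE. ADAM17, which releases tumour necrosis factor and ligands of the epidermal growth factor receptor, had 6.46 and 8.57, 8.39 and 13.7, 9.50 and 6.51, and 6.25 and 9.84 in the same order. Both had a peak in 8 of 8 libraries. ADAM9 ranged from 3.67 to 15.1 over the 8 libraries and ADAM15 from 2.76 to 8.14. ADAMTS1, which cleaves versican, ranged from 3.47 to 9.57 and ADAMTS13, which cleaves von Willebrand factor, from 3.42 to 14.6. ADAMTSL4, a protein of the fibres that hold the eye lens, ranged from 5.89 to 15.4, and MMP16, a membrane-type MMP, from 2.76 to 5.94. The strongest end peak lay at the far end of ADAMTS13 and ADAMTSL4 in every library, and of ADAM15 in every library but hAFE replicate 2. No H3K27ac peak of any library overlapped the promoter window of ADAMTSL4. At ADAM10 and ADAM17 the strongest peak lay at the start in every library. An end of 5 of the 8 is shared with another protein-coding gene, within 2 kb of it or inside it (ADAM9 with TM2D2, ADAM15 with DCST1 and EFNA4, ADAM17 with IAH1, ADAMTS13 with REXO4 and CACFD1, ADAMTSL4 with LOC124904417), so a peak at that end cannot be assigned to 1 gene. IAH1 lies at the far end of ADAM17 and LOC124904417 at the start of ADAMTSL4, in each case the end opposite the strongest peaks. Over the whole set, 13 genes had an end shared in this way.

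From hESC to hDE, ADAM19, ADAM28, ADAMTS3, ADAMTS9 and MMP11 gained H3K27ac, 5 of 67 or 7.46%, close to the 6.72% of all genes. ADAM19 (gene ID 8728), a membrane protease that can shed neuregulin, had no peak in either hESC library, 11.9 and 11.8 in hDE, 5.84 in replicate 1 of hAFE only, and 4.33 and 4.00 in hPFE. The hDE peaks lay at chr5:157575939-157577598 and chr5:157575923-157576242, over and upstream of the promoter printed above. ADAMTS3 (gene ID 9508), which removes the N-propeptide of procollagen and activates vascular endothelial growth factor C, had none in hESC, 6.13 and 6.85 in hDE, 5.67 and 6.40 in hAFE and 4.94 and 5.28 in hPFE. It is thus a gene with a peak in all 6 libraries after hESC, and each of the 6 peaks overlapped its printed promoter. H3K4me2 was already there in hESC (10.99 and 8.49), and no H3K27me3 peak was present in any library.

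ADAMTS9 (gene ID 56999), a versican- and aggrecan-cleaving protease, differed in keeping the mark for the middle stages only. It had no H3K27ac peak in hESC, 5.75 and 5.88 in hDE, 3.78 and 3.88 in hAFE, and again none in either hPFE library. The hDE peaks lay at its upper end, at chr3:64688239-64688622 and chr3:64687759-64687973. ADAM28, an ADAM first described in lymphocytes, had none in hESC, 7.05 and 4.69 in hDE, 5.14 and 4.22 in hAFE and 2.62 and 2.86 in hPFE, and its gain was not called with lists of equal length, each list cut to its strongest 24831 peaks. MMP11, a stromelysin that is activated inside the cell by furin, had none in hESC, 3.99 and 4.69 in hDE, 5.23 in replicate 1 of hAFE only, and 4.05 and 3.17 in hPFE. Its gain was not called with lists of equal length or with a window of 2.5 kb.

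In the same step ADAMTS4 and ADAMTS6 lost H3K27ac, 2 of 67 or 2.99%, beside 1.18% of all genes. ADAMTS4, the first aggrecanase described, had 4.57 and 4.38 in hESC and then only 3.14 in replicate 2 of hPFE. Its hESC peaks lay beside its upper end. ADAMTS6 (gene ID 11174), a relative of ADAMTS10 that acts on microfibril proteins, had 3.39 and 4.10 in hESC, none in hDE, 6.01 and 4.93 in hAFE and 5.59 and 4.17 in hPFE. It was the single gene of the set that gained the mark from hDE to hAFE (1.49%, beside 0.459% of all genes). All other stages but hDE thus showed the peak in both libraries, and H3K4me2 was present at ADAMTS6 in all 6 libraries. Its loss in hDE was not called with lists of equal length. The 2 losses of the first step became 7 without hESC replicate 2 and 4 without hDE replicate 2, and the 1 gain of the second became 3 without hAFE replicate 2 and 2 without hDE replicate 2.

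The step from hDE to hAFE brought losses at ADAM8, MMP14, MMP15, MMP19 and MMP26, 5 of 67 or 7.46%, beside 6.77% of all genes. This step ends in the shortest lists, and the count was 11 without hAFE replicate 1 and 9 without hDE replicate 1. MMP14 (gene ID 4323), the membrane-type protease that activates MMP2, had 3.75 and 4.51 in hESC, 5.03 and 10.3 in hDE, no peak in either hAFE library, and 8.66 and 5.14 in hPFE. It was the single gene that gained H3K27ac from hAFE to hPFE (1.49%, beside 3.81%), a count that became 9 without hAFE replicate 1 and 3 without hPFE replicate 1 or without hPFE replicate 2. The wide peaks of hDE (chr14:22836614-22838417 in replicate 1) and hPFE (chr14:22836397-22838216 in replicate 1) reach from the printed promoter into the gene, and MRPL52, a mitochondrial ribosome gene, lies at the same end. MMP15, another membrane-type MMP, had 2.61 at its far end in hESC replicate 2, 6.55 and 7.36 at its start in hDE, and none in hAFE or hPFE. The hDE replicate 1 peak, chr16:58025014-58025277, ends upstream of the printed window, and the replicate 2 peak, chr16:58025785-58027655, begins inside it.

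MMP19 had 3.55 and 3.35 in hESC, 3.69 and 4.70 in hDE and none later. MMP26 (gene ID 56547), also called matrilysin-2, had 4.20 and 3.73 in hESC, 5.27 and 5.57 in hDE, none in hAFE, and 3.70 in replicate 1 of hPFE. All lay within 1 kb of the start, and each hESC and hDE library had a peak over the CpG-free promoter printed above, where H3K4me2 was found in all 6 libraries (2.43 to 7.13). ADAM8, an ADAM of white blood cells, had 3.23 and 3.73 in hESC and 3.07 and 3.25 in hDE, all at its far end. TUBGCP2, a gene of the microtubule-nucleating gamma-tubulin complex, lies at the other end, the start of ADAM8. With the start alone the loss at ADAM8 was not called, nor with stricter p or q thresholds (−log10 p of at least 5 or −log10 q of at least 2), lists of equal length or 200 bp of overlap.

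Between hAFE and hPFE, ADAMTS9 lost the mark (1 of 67, 1.49%, beside 0.185% of all genes), a call absent with the stricter q threshold or a 2.5 kb window. Without hPFE replicate 1, or without hPFE replicate 2, 2 losses were counted in that step. Set directly against hESC, hPFE showed gains at ADAM19, ADAM28, ADAMTS18, ADAMTS3 and MMP11 (5 of 67, 7.46%, beside 5.25%). ADAMTS18 (gene ID 170692), a secreted protease linked to eye development, had no H3K27ac peak at its ends in hESC or hDE, 3.14 in replicate 1 of hAFE only, and 7.90 and 3.51 in hPFE. The strongest hPFE end peaks, chr16:77435223-77435848 and chr16:77435388-77435604, lie across the upstream edge of the printed promoter and just beyond it. Losses over the same span were at ADAMTS8 and MMP19 (2 of 67, 2.99%, beside 1.63%). ADAMTS8, an inhibitor of blood vessel growth, had 3.71 and 3.75 in hESC and 2.61 in hDE replicate 2. The 2 losses became 9 without hESC replicate 2 and 4 without hESC replicate 1 or hPFE replicate 1. With lists of equal length 1 gain was left, at ADAMTS3, and the gains at ADAM28 and MMP11 and the loss at MMP19 also ended with the stricter p and q thresholds.

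H3K27me3 lay at 11 genes in every library (16.4%, beside 9.06% of all genes) and at 33 in none (49.3%, beside 63.1%). It was gained or lost in at least 1 of the 3 contrasts between stages with 2 libraries at 15 genes, and 8 had it in some libraries only. The 11 constant genes were ADAM11, ADAM12, ADAM33, ADAMTS2, ADAMTS5, ADAMTS8, ADAMTS14, ADAMTS17, ADAMTSL1, ADAMTSL3 and MMP28. Among them, MMP28 (epilysin) had 7.28 and 7.54 in hESC, 7.17 and 5.64 in hDE, 9.12 in the hAFE library and 5.33 and 6.59 in hPFE. ADAMTSL1 had 8.69 and 10.6, 5.85 and 6.48, 6.42, and 4.80 and 6.70 in the same order. ADAMTS2 and ADAMTS14, which process procollagens like ADAMTS3, ranged from 3.42 to 8.39 and from 2.90 to 9.28 over the 7 libraries. The 3 procollagen N-proteinases therefore split: ADAMTS3 had an H3K27me3 peak in 0 of 7 libraries and the other 2 in 7 of 7. ADAM12, a protease of developing muscle and bone, ranged from 3.50 to 8.24, ADAM33 from 3.02 to 6.13, and ADAM11, which lacks the zinc site, from 3.73 to 10.5. The proteoglycanases ADAMTS5 and ADAMTS8 ranged from 4.22 to 5.74 and from 3.43 to 9.28, and ADAMTSL3 from 4.82 to 9.05. ADAMTS17, a gene linked to short stature with eye defects, ranged from 2.51 to 11.03. Peaks of all 11 genes were thus found at each stage, over a wide range of enrichment.

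From hESC to hDE, H3K27me3 was lost at ADAM19, ADAM22 (a synaptic adhesion protein without a zinc site), ADAMTS1, ADAMTS15, ADAMTS9, MMP2 and MMP23B (7 of 67, 10.4%, beside 4.27% of all genes) and gained at MMP24 and MMP25 (2 of 67, 2.99%, beside 0.634%). The losses numbered 12 without hDE replicate 2, and the gains 4 without hESC replicate 2. At ADAMTS9 the mark was 8.69 and 11.3 in hESC, absent at the ends in both hDE libraries and in the hAFE library, and 2.05 and 2.91 in hPFE. Its presence at the ends was thus the reverse of that of H3K27ac at each stage. The call of the return in hPFE was lost with stricter p or q, equal list lengths, 200 bp of overlap and the 2.5 kb window, and with that window the hESC to hDE loss was not called either. ADAM19 had 4.57 and 4.48 in hESC and no H3K27me3 peak in the 5 later libraries. MMP2 (gelatinase A), which cuts denatured and basement membrane collagen, had 4.57 and 6.43 in hESC and none later, and no H3K27ac gain was called at its ends, where it had an H3K27ac peak in replicate 2 of hESC (2.33) and of hDE (2.67) only. Inside the gene, MMP2 had 5 and 5 H3K27ac regions in the hPFE libraries, 3 of them shared, against 0 or 1 in each earlier library. MMP2 had H3K4me2 in all 6 libraries (4.15 to 10.5).

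MMP24, a membrane-type MMP of the nervous system, had no H3K27me3 peak in hESC, then 3.28 and 4.95 in hDE, 6.92 in hAFE and 4.31 and 6.32 in hPFE, each at its start on chromosome 20. MMP25, a membrane-type MMP of neutrophils, had none in hESC, 3.26 and 4.32 in hDE, 9.58 in hAFE and 5.33 and 8.38 in hPFE, each at its lower end on chromosome 16. In the 5 later libraries both genes had the peak without exception, and both gains ended with the 2.5 kb window. MMP25 in hDE also missed the stricter p and q thresholds. ADAMTS15, a versican-cleaving protease, had 4.09 and 4.88 in hESC, none in hDE, 9.87 in hAFE and 3.84 and 4.21 in hPFE, and MMP23B, whose ends lie at MIB2 and CDK11B, had 5.15 and 8.74, none, 6.92, and 3.73 and 4.36. Together with ADAMTS9 these made the 3 gains from hDE to hPFE (4.48%, beside 1.62%), or 6 without hDE replicate 2 and 6 without hPFE replicate 2. With 200 bp of overlap none of the 3 gains was called.

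Losses from hDE to hPFE were at ADAM15, ADAM8 and ADAMTS16 (3 of 67, 4.48%, beside 2.19%), or 6 genes without hDE replicate 1, and those at ADAM15 and ADAM8 ended with the stricter p and q thresholds. ADAMTS16 had a peak of 2.80 in hESC replicate 2, 6.05 and 5.31 in hDE, 5.02 in hAFE and none in hPFE. From hESC to hPFE, 9 genes lost H3K27me3 (13.4%, beside 6.22%), namely ADAM15, ADAM19, ADAM22, ADAM8, ADAMTS1, ADAMTS18, ADAMTSL4, MMP11 and MMP2, and the 2 gains were again MMP24 and MMP25 (beside 1.13%), or 5 without hPFE replicate 2. ADAMTS18 had 7.18 and 11.2 in hESC, 4.65 in hDE replicate 2, 3.18 in hAFE and none in hPFE. MMP11 had 5.18 and 5.51 in hESC, then 3.46 in hDE replicate 2 alone. ADAM15 had 4.64 and 5.64 in hESC, 2.22 and 4.75 in hDE, 3.55 in hAFE and none in hPFE, and ADAM8 had 5.07 and 5.59, 3.03 and 3.23, and 4.27 before it too had none in hPFE, though with the start alone its loss was not called. The strongest ADAM8 peaks lay at the far end in both hESC libraries and hDE replicate 1, and at the start in hDE replicate 2 and hAFE. In hDE, neither end of ADAM8 carried H3K27me3 in both libraries. The weakest of the 9 genes were ADAMTS1 (2.45 and 3.29 in hESC), ADAM22 (2.68 and 4.19) and ADAMTSL4 (3.58 and 4.89), whose losses ended with the stricter p and q thresholds. Of the genes that gained H3K27ac from hESC to hPFE, ADAM19, ADAMTS18 and MMP11 stood on this list of losses, while ADAM28 and ADAMTS3 had no H3K27me3 peak in any library. How many of all genes made both changes was not counted, so this overlap has no share to stand beside. The H3K27ac gain at MMP11 held under only 1 of 6 alternative settings.

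H3K4me2 was the steady mark of the set, present at 40 genes in every library (59.7%, beside 64.3% of all genes) and at 13 in none (19.4%, beside 19.7%). From hESC to hDE no gene gained it (beside 0.449%) and 1 lost it (1.49%, beside 2.04%). The gene was MMP9, gelatinase B, with 3.15 and 2.81 in hESC and no peak later. That call did not hold with the stricter p or q thresholds or the 2.5 kb window. The losses numbered 5 without hESC replicate 2 and 4 without hDE replicate 2, and the gains 1 without hESC replicate 1 and 2 without hDE replicate 1.

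Combining the marks, 14, 9, 15 and 16 genes over the stages carried H3K4me2 and H3K27me3 with no H3K27ac peak, the pairing often called poised or bivalent. These are 20.9%, 13.4%, 22.4% and 23.9% of the set, where the share of all genes was 13.2%, 8.03%, 10.8% and 7.72%. H3K4me2 with H3K27ac and no H3K27me3 was found at 13, 17, 14 and 19 genes (19.4%, 25.4%, 20.9% and 28.4%, beside 37.1%, 46.9%, 33.1% and 45.6%). H3K27me3 and H3K4me2 together stood at 9 genes in every library (13.4%, beside 6.88%), the 11 named above less ADAM33 and ADAMTS14, and H3K27ac with H3K4me2 in every library and H3K27me3 in none was found at 5 (7.46%, beside 25.2%): ADAM9, ADAM10, ADAM17, ADAMTS13 and MMP16.

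All 3 marks were called at 6, 4, 1 and 2 genes over the stages (beside 2.77%, 2.16%, 0.804% and 1.21% of all genes). In hESC these were ADAM8, ADAM15, ADAM22, ADAMTS1, ADAMTS8 and ADAMTSL4. H3K27ac and H3K27me3 lay at the same end in ADAM8, ADAM22 and ADAMTS1, and at opposite ends in ADAM15, ADAMTS8 and ADAMTSL4. MMP24 likewise carried H3K27me3 at its start and H3K27ac at its far end in hDE and in hPFE. That far end is shared with EIF6, a ribosome assembly gene. A combination called for a whole gene can therefore come from its separate ends. H3K4me2 stood alone at 1, 2, 6 and 3 genes over the stages (beside 5.1%, 2.3%, 9.83% and 4.14% of all genes), and 12, 17, 19 and 16 genes had none of the marks (beside 21%, 21.7%, 26.6% and 21.2%). The 6 in hAFE with H3K4me2 alone were ADAMTS4, MMP2, MMP14, MMP15, MMP19 and MMP26, and the last 4 are the MMP genes that lost H3K27ac from hDE to hAFE. Both calls require that neither hAFE library has an H3K27ac peak, so this overlap follows in part from the definitions.

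Peaks inside the genes gave a separate view, since the ends played no part in it. A body region is a stretch of H3K27ac shared by all libraries of a stage, inside the gene and over 1 kb from both ends. Over the stages the 67 genes held 34, 124, 19 and 62 such regions, or 0.263%, 0.428%, 0.258% and 0.370% of those in all protein-coding genes, while they make up 0.565% of the summed gene length. Per Mb of gene they held 4.65, 16.9, 2.60 and 8.47 regions, beside 9.98, 22.3, 5.69 and 12.9 over all genes. At least 1 region was found in 13, 27, 10 and 21 genes (19.4%, 40.3%, 14.9% and 31.3%, beside 20.1%, 32%, 14.3% and 24.3%), and the median gene had 0 at each stage. The number of regions called moves with the length of the lists, and with equal list lengths 10 regions were left in hESC, 22 in hDE and 17 in hPFE. Counted from 1 library alone they numbered 136 and 148 in hESC (without replicate 1 and without replicate 2), 215 and 208 in hDE, 28 and 62 in hAFE and 252 and 194 in hPFE.

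ADAMTS18 and ADAMTS9 stood at the top of the set, at different stages. ADAMTS18, a gene of 153 kb at chr16:77282128-77435034, had 2 and 0 regions in the hESC libraries, 1 and 1 in hDE, 6 and 3 in hAFE, and 56 and 31 in hPFE. Shared regions numbered 0, 0, 2 and 23, and only 51 of 20037 genes had more than 23 in hPFE. These peaks covered 18299 bp in hPFE replicate 1 and 7811 bp in replicate 2, beside 2153 bp or less in each earlier library. They were spread along the whole gene, with a strongest peak of 6.54 at chr16:77336238-77337846 in replicate 1 and of 6.09 at chr16:77298796-77299308 in replicate 2. Of the 23 shared stretches, 5 also overlapped a peak of hAFE replicate 1 and 6 an H3K4me2 peak of hPFE, and none overlapped an H3K27me3 peak of any stage. With lists of equal length 4 of the regions were left in hPFE, against 2 in hAFE and 0 before.

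ADAMTS9, a gene of 172 kb at chr3:64515654-64688000, had 3 and 3 regions in hESC, 22 and 20 in hDE, 13 and 1 in hAFE, and 2 and 4 in hPFE. The shared regions numbered 0, 19, 1 and 0, and 190 genes had more in hDE. The hDE peaks covered 9442 and 8980 bp, beside 600 and 746 bp in hESC and 360 and 775 bp in hPFE. They gathered toward the upper end of the gene, and their strongest were 8.33 at chr3:64650294-64651209 in replicate 1 and 8.66 at chr3:64686040-64686854 in replicate 2. The hAFE libraries did not agree here, with 4030 bp covered in replicate 1 and 198 bp in replicate 2, the shorter list. Of the 19 hDE stretches, 0 overlapped an hESC H3K27ac peak, 2 and 3 overlapped an H3K27me3 peak of the hESC libraries, and 6 and 8 an H3K4me2 peak of the hDE libraries. With lists of equal length 6 regions were left in hDE and 0 at all other stages. No other protein-coding gene overlaps ADAMTS9 or ADAMTS18.

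**Figure D3:**
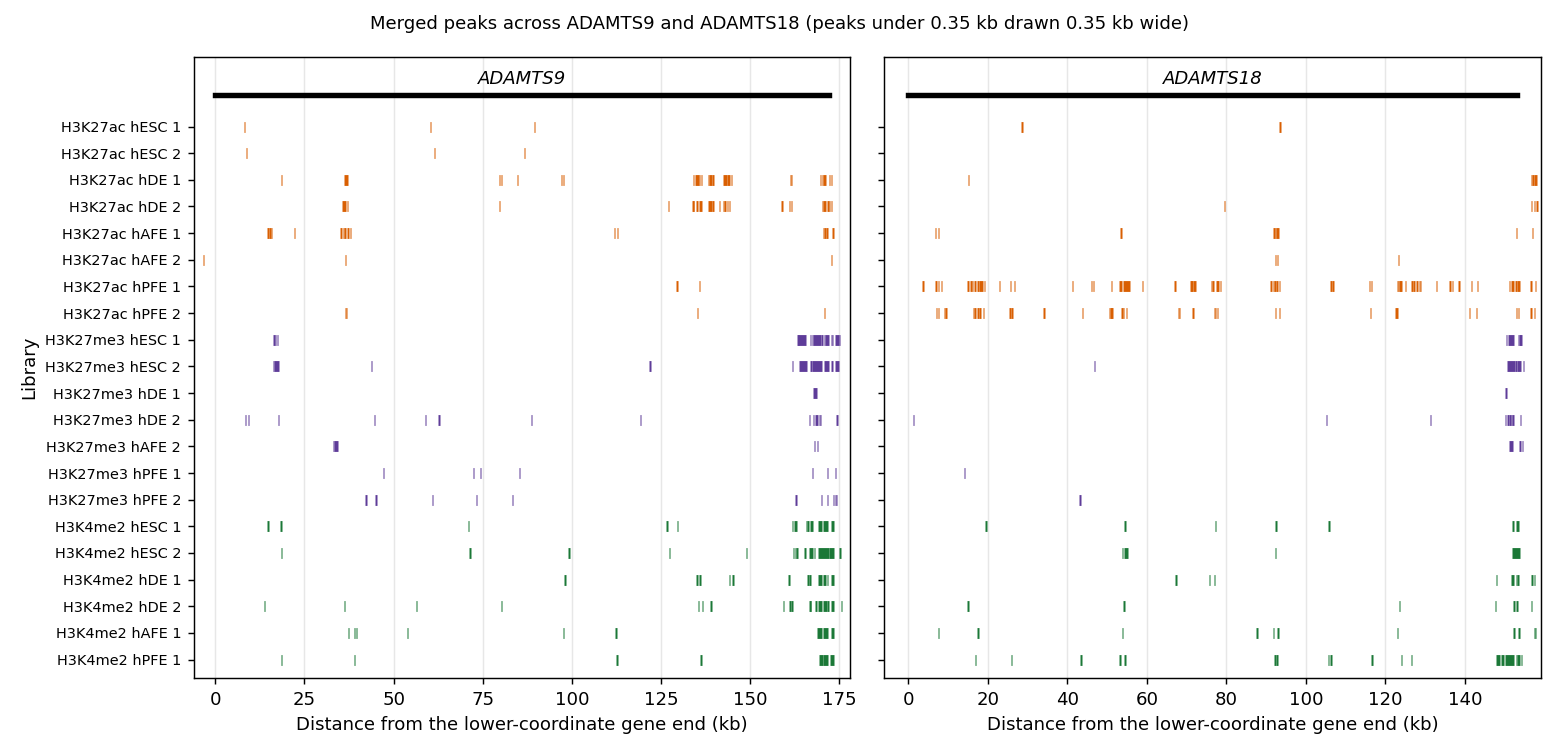
Merged peaks (ticks) of the 21 libraries (rows) along ADAMTS9 and ADAMTS18, by distance from the lower-coordinate gene end in kb, with the black bar as the gene and peaks under 0.35 kb drawn at that width. H3K27ac ticks crowd the right part of ADAMTS9 in the hDE rows and fill ADAMTS18 in the hPFE rows, while most H3K27me3 ticks of hESC sit toward the right end of both genes, with a further group near 17 kb in ADAMTS9 and single ticks elsewhere in replicate 2.

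ADAM19 resembled ADAMTS9 in its hDE pattern. It had 0 and 0 regions in hESC, 13 and 16 in hDE, 0 and 0 in hAFE and 4 and 4 in hPFE, with 0, 11, 0 and 1 shared. The strongest hDE peaks of the 2 replicates, 8.55 and 8.50, lay at the same place, chr5:157546605-157547458 and chr5:157546535-157547485. Of the 11 stretches, 6 and 5 overlapped an H3K4me2 peak of the hDE libraries and 0 one of either hESC library. ADAMTSL1, the longest gene named at 1004 kb, had 7 and 9, 26 and 25, 0 and 0, and 14 and 15 regions, with 0, 18, 0 and 2 shared. Its ends carried H3K27me3 in every library. Measured per 100 kb, the hDE density was 11 regions in ADAMTS9, 11.2 in ADAM19 and 1.79 in ADAMTSL1, and the hPFE density was 15.0 in ADAMTS18. With lists of equal length ADAM19 kept 3 regions in hDE and ADAMTSL1 kept 0.

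The next genes had no more shared regions at any stage than the 11 of ADAM19 in hDE. ADAMTS19 had 5, 11, 1 and 1 shared regions over the stages, ADAMTS6 had 0, 2, 1 and 8, and ADAMTS12, which cleaves cartilage oligomeric matrix protein, had 0, 7, 6 and 4. ADAM12 had 6, 2, 0 and 0, the reverse order in time, with 13 and 12 regions in the hESC libraries, and ADAMTS16 and MMP16 also reached 6. Libraries of a stage could differ widely: ADAMTS19 had 5 regions in hPFE replicate 1 and 27 in replicate 2. With lists of equal length ADAMTS19 kept 0 shared regions in hDE, against 1 in hESC and 1 in hAFE.

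**Figure D4:**
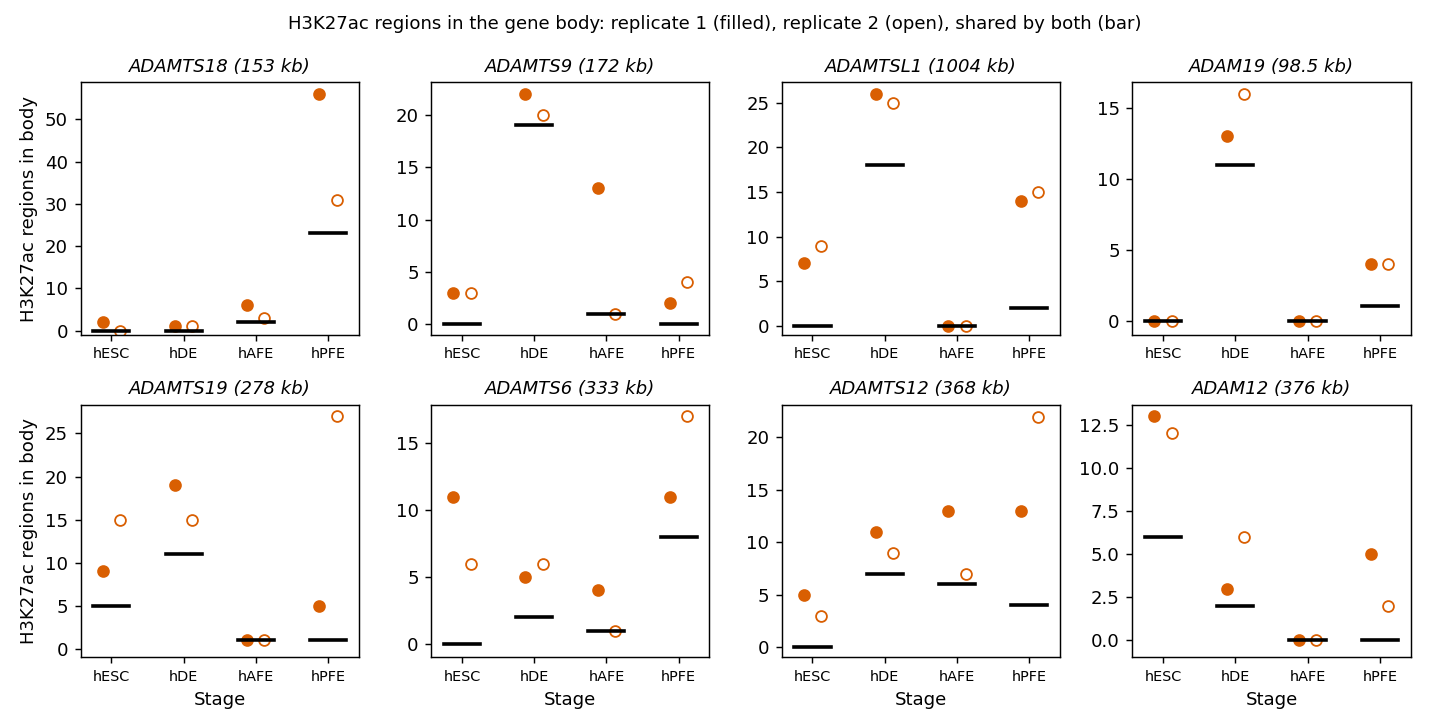
Number of H3K27ac regions inside 8 genes (vertical axis, scale differs by panel) at each stage, for replicate 1 (filled), replicate 2 (open) and shared by both (bar). ADAMTS18 reaches 56 and 31 in hPFE only, ADAMTS9 22 and 20 and ADAM19 13 and 16 in hDE, and ADAM12 is highest in hESC.

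At the other extreme, 9 genes had no peak of any mark at an end in any of the 21 libraries (13.4%, beside 12.8% of all genes): ADAM2, ADAM21, ADAM29, ADAMTSL2, MMP7, MMP8, MMP12, MMP13 and MMP21. For ADAMTSL2 this holds for the ends only: its RefSeq promoter window lies over 1 kb inside the gene. That window had H3K4me2 in both hESC and both hDE libraries. ADAM2, ADAM21 and ADAM29 are known from sperm and testis. MMP7, MMP8, MMP12 and MMP13 belong to the cluster of 9 MMP genes on chromosome 11 (chr11:102519508-102956732, 437 kb), with MMP1, MMP3, MMP10, MMP20 and MMP27, which holds collagenases, stromelysins, matrilysin, macrophage elastase and enamelysin. H3K27ac peaks covered 0.0407% to 0.782% of it, H3K27me3 0.0% to 0.294% and H3K4me2 0.126% to 0.745% in single libraries. The end peaks found there were 1 of H3K27ac (MMP10 in hPFE replicate 2, 3.80), 2 of H3K27me3 (MMP20 and MMP27, both in hPFE replicate 1) and 4 of H3K4me2 (MMP1, MMP3 and MMP10 in hESC replicate 1 and MMP10 in hPFE). No gene of the cluster was marked by H3K27ac or H3K27me3 at any stage. None of the interstitial collagenases MMP1, MMP8 and MMP13 had an H3K27ac or H3K27me3 peak at an end in any library.

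The promoter windows of the 41 genes with a RefSeq entry (15843 genes have one) differed in base composition with the presence of H3K4me2 at a gene end. The promoter entry lies away from the gene start at ADAMTSL2 (2540 bases), ADAMTS13 (8030), ADAM20 (44448) and ADAMTSL1 (567520). For these genes the window and the ends scored are different places. The 27 genes with H3K4me2 at an end in every library had a median of 30 CpG dinucleotides per 300 bases (range 0 to 48), and the 9 with it in none had a median of 4 (1 to 27). Over all genes the medians were 27 and 4. The word TATAAA, searched anywhere in the window, stood in 2 of the 27 windows (7.41%, beside 5.51% of all genes with H3K4me2 in every library) and in 6 of the 9 (66.7%, beside 20.7%). Its first base lay at -30 in MMP7 and ADAMTSL2, at -72 in MMP20, -92 in MMP21, -110 in MMP8 and 39 in ADAM21. Among the steady H3K4me2 genes, MMP26 had 0 CpG with the word at -28, ADAMTS10 had it at -78, and ADAMTS13, ADAMTSL1, ADAMTS6 and MMP14 had 7, 8, 9 and 10 CpG. The ADAMTS13 window itself overlapped H3K4me2 in hESC replicate 2 only, and the ADAMTSL1 window in every library but that of hAFE. Among the genes without H3K4me2 at an end, ADAMTSL2 had 27 CpG, but its window itself overlapped H3K4me2 in both hESC and both hDE libraries. That window also overlapped H3K27me3 in replicate 2 of hESC and of hDE. Of the 41 windows, 27 held a GC box, GGGCGG (65.9%, beside 58.3% of all), 4 a GATA motif, AGATAA or TGATAA (9.76%, beside 12.1%), 2 a FOXA motif, TGTTTAC or TGTTTGC (4.88%, beside 5.76%), 1 an AP-1 motif, TGAGTCA or TGACTCA (MMP7, 2.44%, beside 3.62%), and 0 the T-box motif AGGTGTGA (beside 0.896%). Both strands were searched, and no motif word contains another.

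**Figure D5:**
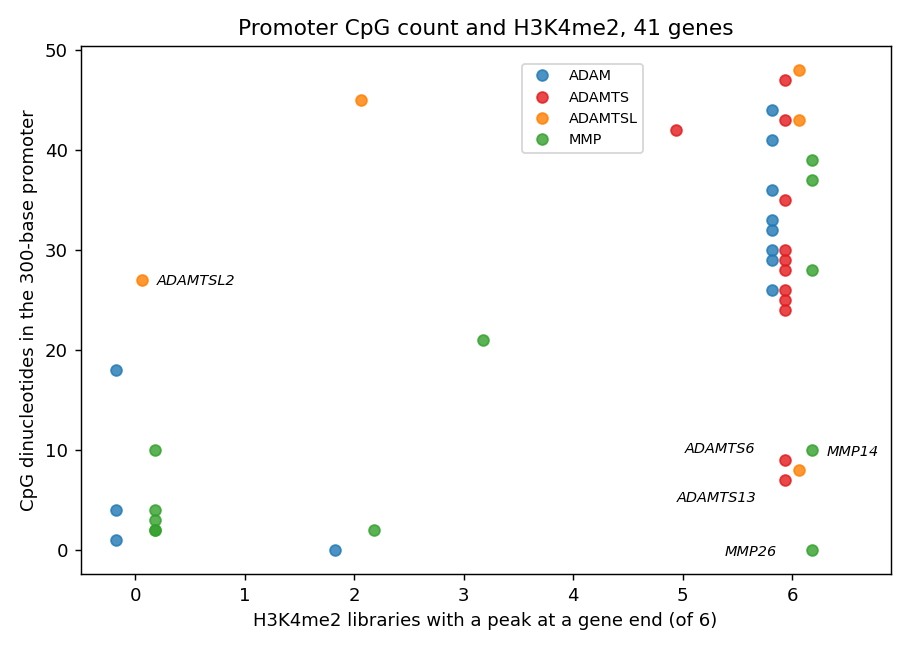
CpG dinucleotides in the 300-base promoter (vertical axis) against the number of H3K4me2 libraries, of 6, with a peak at a gene end (horizontal axis, points shifted sideways by family), 1 point per gene for 41 genes. Genes with H3K4me2 in every library have a median of 30 CpG and those with none a median of 4, and MMP26, with 0, is the lowest of the first group. The promoter windows of ADAM20, ADAMTS13, ADAMTSL1 and ADAMTSL2 lie away from the gene start.

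Among 33 genes of inhibitors, activators, partners and substrates, 5 gained H3K27ac from hESC to hDE (15.2%, beside 6.72% of all genes) and 1 lost it (3.03%, beside 1.18%). The gains were at TIMP3, RHBDF1, RHBDF2, FBN1 and FBN2, and the loss was at VCAN. From hDE to hAFE, 8 lost it (24.2%, beside 6.77%), namely TIMP2, TIMP3, FURIN, PLAUR, RHBDF1, RHBDF2, FBN2 and VWF, and VCAN gained it (3.03%, beside 0.459%). This step ends in the shortest H3K27ac lists, and no alternative setting was tried on the calls of these 33 genes. From hAFE to hPFE, TIMP2, FURIN and FBN2 gained it (9.09%, beside 3.81%) and TSPAN5, an escort of ADAM10, lost it (3.03%, beside 0.185%). From hESC to hPFE, FBN2 gained it (3.03%, beside 5.25%), and TIMP4, PLAUR, TSPAN33 and BCAN lost it (12.1%, beside 1.63%).

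The tissue inhibitors of metalloproteinases differed from each other. TIMP1 had no H3K27ac peak in any library. TIMP2, which also takes part in the activation of MMP2 by MMP14, had 4.47 in hESC replicate 2, 3.37 and 3.61 in hDE, none in hAFE and 3.15 and 4.29 in hPFE. For TIMP2, as for MMP14 and FURIN, hAFE was the single stage at which neither library had a peak at an end. The hAFE lists of H3K27ac are the shortest, and how many of all genes share this pattern was not counted. TIMP3, an inhibitor of ADAM17 and of aggrecanases, had 6.44 and 6.49 in hDE and no peak in the 6 other libraries, and TIMP4 had 4.28 and 3.74 in hESC and 2.94 in hDE replicate 2. RECK, a membrane-anchored inhibitor, had a peak in 8 of 8 libraries (3.58 to 8.99). RHBDF1 and RHBDF2, the iRhom proteins that bring ADAM17 to the cell surface, had 4.29 and 3.25 and 4.14 and 4.33 in hDE. RHBDF1 had 1 more, in hPFE replicate 2 (3.43). FURIN, a convertase that activates many ADAM and membrane-type MMP precursors, had 3.76 and 2.30 at its far end in hESC, 7.25 and 4.69 at its start in hDE, none in hAFE and 5.96 and 3.70 in hPFE. PLAUR, the urokinase receptor, had 4.04 and 4.32 in hESC, 3.22 and 3.38 in hDE and none later. Of the 9 convertase and plasminogen genes, H3K27ac marked 3, 4, 1 and 2 over the stages, and the 1 in hAFE was PCSK7, a convertase with a peak in 8 of 8 libraries. TSPAN5 had 3.97 in hESC replicate 2, 4.50 in hDE replicate 2 and 4.41 and 3.27 in hAFE. TSPAN33, another tetraspanin that binds ADAM10, had 3.50 and 4.43 at its far end in hESC and 2.40 at its start in hDE replicate 2. H3K27me3 lay at the start of TSPAN33 in every library (2.24 to 6.11). Among the substrates, VWF, cut by ADAMTS13, had 3.14 in hESC replicate 1, 12.0 and 15.7 in hDE and no peak later. BCAN, the brevican gene, had 4.01 and 5.02 in hESC, 3.22 and 4.08 in hDE and 3.84 in hAFE replicate 1. These H3K27ac peaks of BCAN all lay at its far end, while H3K27me3 lay at its start in every library. FBN1, fibrillin-1, had 3.52 and 4.89 in hDE, 2.86 in hAFE replicate 1 and 4.29 in hPFE replicate 2. VCAN, the versican gene and a substrate of ADAMTS1 and ADAMTS9, had 5.48 and 7.72 in hESC, none in hDE, 7.89 and 4.13 in hAFE and 9.54 and 4.05 in hPFE. ADAMTS6 showed the same library pattern as VCAN, with a peak in all but the hDE libraries, and how many of all genes share it was not counted. FBN2, a fibrillin of embryonic microfibrils, had 3.31 and 4.24 in hDE and 6.13 and 4.08 in hPFE and none in hESC or hAFE.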

How the data were processed

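The files hold ChIP-seq peak lists in narrowPeak form, 1 for each of 21 libraries of H1 cells. No list was filtered before use beyond the steps given here. Per the file names, the authors called peaks on sorted, duplicate-free alignments against the input of the stage, keeping peaks with p up to 0.01 and at most 500 K of them, a number no list reached. Per the submitters' processing notes the build was hg38; which aligner and peak caller made them is not given in the sources at hand. The deposited columns are a score, which was not printed, a fold enrichment over input (a ratio), and −log10 p and −log10 q of each peak. Peaks were called per library, and the depth per library is unknown, since no read counts were used.

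Overlapping peaks of a library were merged and set against the ends and bodies of 20037 protein-coding genes of the RefSeq gene table (GRCh38.p14), with python 3.11.15, numpy 2.4.6 and pandas 2.3.3, and figures were drawn with matplotlib 3.10.9. Strand was known for 41 of the 67 genes, those in the RefSeq promoter table. No statistical test was made, for the reason given with the results. The 67 genes follow from the rule on symbols, which uses no measured value, but this family, the role groups, the 33 related genes and the markers were chosen for study with earlier results of these data known.

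Genes were named by a fixed rule: each gene that gained or lost H3K27ac or H3K27me3 in the contrasts given, those with H3K27ac at all stages or H3K27me3 in every library, those with no peak, the 8 with most body regions, and each related gene that gained or lost H3K27ac, with the TIMP genes and RECK. Other genes named beside them were chosen after their values were seen. Alternatives were a −log10 p of at least 5, a −log10 q of at least 2, equal list lengths, 200 bp of overlap, a 2.5 kb window, the annotated start alone where strand was known, no margin for body regions, and each library left out. H3K27me3 replicate 1 of hAFE was not analysed here.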

Additional observations from a re-analysis of the deposited data

How the results depend on the processing

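Counts of genes with H3K27me3 or H3K4me2 at each stage, of H3K27ac gains from hESC to hDE and of H3K27me3 losses from hESC to hPFE stayed within 1.5 times of the reported value under each alternative. The balance of H3K27ac gains to losses did turn with equal list lengths: from hESC to hPFE it went from 5 and 2 to 1 and 6, and from hDE to hAFE from 1 and 5 to 3 and 3. Of 49 gains and losses at single genes, 20 held under all 6 settings other than leaving a library out: 46 held with the annotated start, 39 with 200 bp of overlap, 35 with −log10 p of at least 5, 34 with −log10 q of at least 2, 33 with the 2.5 kb window and 32 with equal list lengths. Leaving out a library cannot end such a call, so it only adds calls. The cause of each change below was not tested, beyond the shorter lists that the thresholds and equal lengths leave.

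With equal list lengths, H3K27ac marked 15 genes in hDE and 12 in hPFE, H3K27ac losses from hESC to hDE numbered 5, gains from hDE to hAFE 3 and losses 3, losses from hAFE to hPFE 5, gains from hESC to hPFE 1 and losses 6, H3K27me3 losses from hDE to hPFE 1, and body regions 10 in hESC, 22 in hDE and 17 in hPFE. With −log10 p of at least 5, H3K27ac gains from hAFE to hPFE numbered 3, losses 3, losses from hESC to hPFE 4, H3K27me3 losses from hDE to hPFE 1, H3K4me2 gains 1 and losses 0, and body regions 12, 63, 12 and 25 over the stages. With −log10 q of at least 2, H3K27ac marked 7 genes in hAFE, gains from hAFE to hPFE numbered 3, losses 2, losses from hESC to hPFE 4, H3K27me3 losses from hDE to hPFE 1, H3K4me2 losses 0, and body regions 15 in hESC, 10 in hAFE and 29 in hPFE. With 200 bp of overlap, H3K27ac gains and losses from hAFE to hPFE were 2 each, losses from hESC to hPFE 1, and H3K4me2 losses 5. With the 2.5 kb window, H3K27ac losses numbered 5 from hESC to hDE, 8 from hDE to hAFE, 0 from hAFE to hPFE and 6 from hESC to hPFE, gains from hAFE to hPFE 2, H3K27me3 gains 0 from hESC to hDE, 1 from hDE to hPFE and 0 from hESC to hPFE, and H3K4me2 gains 1 and losses 0. With no margin, 32 body regions were counted in hAFE.

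Leaving out each library in turn gave ranges of 23 to 29 genes with H3K27ac in hESC and 15 to 24 in hAFE. H3K27ac losses ranged from 2 to 7 (hESC to hDE), 5 to 11 (hDE to hAFE), 1 to 2 (hAFE to hPFE) and 3 to 9 (hESC to hPFE), and gains from 1 to 3 (hDE to hAFE) and 1 to 9 (hAFE to hPFE). H3K27me3 gains ranged from 2 to 4 (hESC to hDE), 3 to 6 (hDE to hPFE) and 2 to 5 (hESC to hPFE), and losses from 7 to 12 (hESC to hDE) and 3 to 6 (hDE to hPFE). H3K4me2 gains ranged from 0 to 2 and losses from 1 to 5. Body regions ranged from 136 to 148 in hESC, 208 to 215 in hDE, 28 to 62 in hAFE and 194 to 252 in hPFE. A stage left with 1 library is called from it alone.

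No paired analysis was possible because the results come from no fitted test, and the labels do not say that a replicate number marks a shared culture. List length, and with it the unknown depth, limits what a missing peak can show, for H3K27ac and H3K27me3 most of all in hAFE, which has the shortest lists of these marks.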

Other observations

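Some genes carried H3K27ac in part of the libraries without a gain or loss in a contrast described above. ADAM7, an ADAM of the epididymis, had a fold enrichment of 3.62 in hESC replicate 1, 5.96 and 5.87 in hDE, 3.25 and 2.46 in hAFE and 2.30 in hPFE replicate 2. It lies beside ADAM28 on chromosome 8, and the pair was covered to 1.52% and 1.24% by H3K27ac in hDE against 0.148% and 0.222% in hESC. MMP24 had 3.99 in hESC replicate 2, 6.26 and 9.09 in hDE, 6.98 in hAFE replicate 1 and 4.47 and 4.29 in hPFE, all at its far end. ADAMTS12 had 2.94 in hESC replicate 1, 5.17 in hDE replicate 2, 5.39 and 5.56 in hAFE and 2.10 in hPFE replicate 1, which made it marked in hAFE only. ADAMTS10, a partner of fibrillin-1, and ADAMTS19 had a peak in every library but hAFE replicate 2, the shortest list. MMP9 had 3.86 in hESC replicate 1 alone.

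H3K27me3 covered the group of ADAM2, ADAM18 and ADAM32 on chromosome 8 to 0.82% and 0.447% in hPFE, against 0.0% to 0.109% in the 5 earlier libraries, and none of its peaks lay at a gene end. ADAMTS20, known from a pigmentation mutant of the mouse, had H3K27me3 in all libraries but hDE replicate 1 (3.53 to 5.72). MMP17 had it in every library but replicate 1 of hESC and of hDE, 2 of the 3 libraries whose file names carry the word millipore, with 6.29, 6.05, 6.19, 4.80 and 7.37 in the others.

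Of the 41 genes with a known strand, those with H3K27me3 in every library of a stage carried it at the start alone in 15, 9, 13 and 10 cases over the stages, and at the far end alone in 1, 0, 0 and 0. For H3K27ac the start alone was marked in 8, 10, 7 and 11 genes and the far end alone in 4, 4, 2 and 3.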
